A study of Mus musculus with 6 samples.

Results

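The genes described here encode the receptor chains, Janus kinases, STAT2 factor and feedback inhibitor through which cells answer interferons: Ifnar1 and Ifnar2, Ifngr1 and Ifngr2, Jak1, Jak2 and Tyk2, Stat2, and Socs1. They were taken by gene symbol from a fixed list, and all 9 were present among the 22032 genes of the deposited table. RNA had been sequenced from mDE6, a mouse cell line, in 6 libraries. A control hairpin RNA (shControl, libraries numbered 1, 2 and 3 in the table, whose column names give it as shluc) was carried by 3 of them, and a hairpin against the small GTPase gene Arl4c (shArl4c, numbered 2, 3 and 4) by the other 3. The labels name no drug, cytokine, time point or clone, and give neither the tissue of origin of the line nor whether libraries of a group came from separate cultures, so p-values measure the spread between these libraries, which may be technical. With a single Arl4c hairpin group, effects of lower Arl4c and other effects of the hairpin or culture cannot be told apart.

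Interferons act through paired receptor chains. Type I interferons bind IFNAR1, which carries the kinase TYK2, and IFNAR2, which carries JAK1; interferon gamma binds IFNGR1, which carries JAK1, and is completed by IFNGR2, which carries JAK2. The activated kinases phosphorylate STAT proteins. STAT2, with a STAT partner and IRF9, forms the complex that binds interferon-stimulated response elements (ISRE) after type I signalling, whereas a STAT homodimer binds gamma-activated sites (GAS) after interferon gamma. SOCS1 is induced by the pathway and blocks the kinases. Apart from their antiviral role, JAK1 and JAK2 also serve many other cytokine receptors.

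The deposited values are in CPM (normalised read counts) and could be turned back into 12316770 to 14976113 reads per library. Arl4c stood between 20.1 and 21.0 CPM in shControl and between 6.75 and 7.42 CPM in shArl4c. The libraries fell into their groups on the first principal component, which held 73.9% of the variance, and shArl4c 3 lay apart from shArl4c 2 and 4 on the second. Of 10 mesenchymal markers, 9 passed the filter of a mean of 1 CPM over the 6 libraries, whereas none of 8 listed epithelial markers did, the highest of these having a mean of 0.973 CPM. Mesenchymal markers moved with the group: 5 of the 9 fell and 2 rose (median on the log2 scale -0.67). By the limma test described below, 77.8% of the 9 changed, against 36.9% of all tested genes. The summed level of all 10 was 40882 to 42393 CPM in shControl and 25083 to 25743 CPM in shArl4c. Their part in the results below was not tested. Fewer cells of a type and less RNA per cell cannot be told apart in these bulk libraries.

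Of the 9 transcripts, some rose and some fell. Stat2 rose 1.67-fold in shArl4c and Tyk2 1.17-fold, while Jak2 fell 1.29-fold, Jak1 1.16-fold, Ifngr2 1.15-fold and Ifnar1 1.15-fold. Ifnar2, Ifngr1 and Socs1 did not pass the test. By limma on log2(CPM + 1), with p-values adjusted by Benjamini-Hochberg over all 14740 tested genes and a threshold of 0.05, 6 of the 9 genes (66.7%) changed, against 36.9% of all tested genes. Of these, 2 were higher and 4 lower, where 18.9% of tested genes were higher and 18.0% lower. The 3 libraries of one group lay wholly above or below those of the other for 7 of the 9 genes (77.8%), against 46.8% of tested genes. The median log2 fold change of the 9 genes was -0.16 and their median absolute change 0.20, beside 0.0094 and 0.15 over all tested genes. The quasi-likelihood test of edgeR on recovered reads called 7 of the 9 genes, 2 higher and 5 lower (36.5% of tested genes), and DESeq2 called 4, 1 higher and 3 lower (27.9%). Without shArl4c 3, limma called 7 of them, 3 higher and 4 lower (45.1% of tested genes), and without shArl4c 4 it called 3, 1 higher and 2 lower (30.8%).

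**Figure D1:**
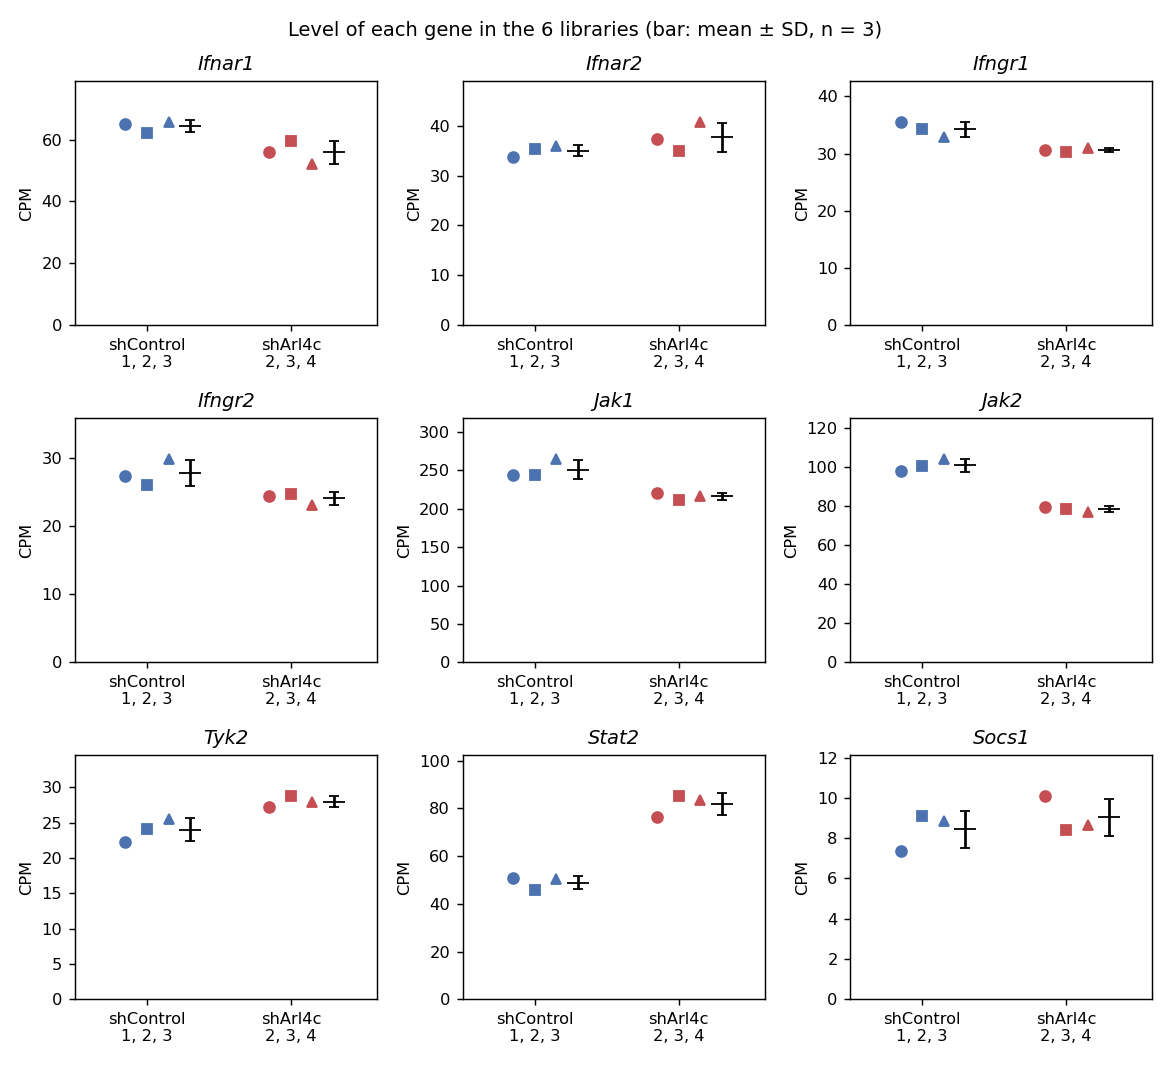
Level of each of the 9 genes in CPM (vertical axes, from 0) in the 3 shControl libraries (blue, numbered 1, 2 and 3) and the 3 shArl4c libraries (red, numbered 2, 3 and 4), with mean ± SD in black. Stat2 goes from a mean of 48.96 to 81.8 CPM with no overlap of groups, and the groups overlap for Ifnar2 and Socs1.

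Levels between genes were compared as CPM per kb of exon, the exons of all coding transcripts of a gene being merged. In shControl, Jak1 was the most abundant of the 9 at 51.1 ± 2.50 CPM per kb (SD, n = 3), followed by Jak2 at 20.02 ± 0.633. Ifnar1 (16.5 ± 0.483) and Ifngr1 (16.2 ± 0.627) came next and differed by less than their SD, as did Stat2 (11.1 ± 0.612) and Ifnar2 (11.01 ± 0.351 CPM per kb). Ifngr2 stood at 7.49 ± 0.518, Tyk2 at 4.31 ± 0.295 and Socs1 at 2.90 ± 0.317 CPM per kb. Jak1 and Socs1 were also the first and last of the 9 in shArl4c, at 44.05 ± 1.02 and 3.11 ± 0.315 CPM per kb. Stat2 was the fifth in shControl and the second in shArl4c, where it stood at 18.6 ± 1.04, above Jak2 at 15.5 ± 0.303 CPM per kb. The places between the first and the last depend on the length used: with the shortest coding transcript of each gene, 1099 bases for Ifnar2, Ifnar2 would come second in both groups.

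**Figure D2:**
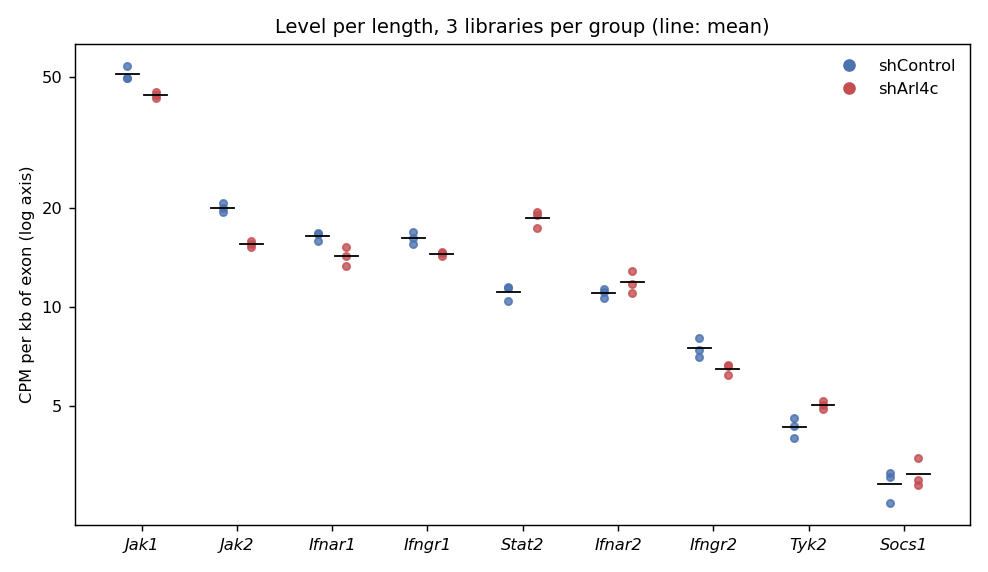
CPM per kb of exon (vertical log axis) of the 9 genes, ordered by their shControl mean, with a point for each library (blue, shControl; red, shArl4c) and a black line at each group mean. Jak1 lies highest in both groups and Socs1 lowest, and Stat2 goes from 11.1 to 18.6.

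Of the type I receptor chains, Ifnar1 fell and Ifnar2 did not pass. Ifnar1, the chain that carries TYK2, measured 65.03, 62.2 and 65.8 CPM in libraries 1, 2 and 3 of shControl, against 55.9, 59.7 and 52.2 CPM in libraries 2, 3 and 4 of shArl4c. All shArl4c values lay below all shControl values, and shArl4c 3 was the nearest to them. The log2 fold change was -0.20 with an SE of 0.056 (limma adjusted p = 0.00794), and without shArl4c 4 the call was lost (log2 fold change -0.15, limma adjusted p = 0.0645), as it was without trend and robust moderation (limma adjusted p = 0.0571). Ifnar2, the chain that carries JAK1 and binds the ligand most tightly, measured 33.7, 35.2 and 35.9 CPM in shControl, against 37.3, 34.9 and 40.8 CPM in shArl4c. These groups overlapped through shArl4c 3, and the 95% interval of the log2 fold change, -0.035 to 0.24, spanned 0 (limma adjusted p = 0.246). Without shArl4c 3, Ifnar2 passed as higher (log2 fold change 0.15, limma adjusted p = 0.0425). The ratio of Ifnar1 to Ifnar2 in CPM was 1.93, 1.77 and 1.83 in the shControl libraries and 1.50, 1.71 and 1.28 in the shArl4c libraries, so the groups did not overlap in the balance of the chains. This ratio was not tested.

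Both chains of the interferon gamma receptor had lower means in shArl4c, and Ifngr2 passed the test. Ifngr1, the ligand-binding chain, measured 35.6, 34.2 and 32.9 CPM in shControl, against 30.7, 30.2 and 31.0 CPM in shArl4c. The groups did not overlap, with a log2 fold change of -0.16 (95% interval -0.28 to -0.026), but the limma adjusted p was 0.0555. With edgeR on recovered reads Ifngr1 passed as lower (adjusted p = 0.0399), and with DESeq2 it did not (adjusted p = 0.194). Ifngr2, the chain that brings JAK2, measured 27.4, 26.1 and 29.9 CPM in shControl, against 24.5, 24.7 and 23.03 CPM in shArl4c, again with no overlap (log2 fold change -0.20 with an SE of 0.071, limma adjusted p = 0.0356). Its call was lost without shControl 1 (limma adjusted p = 0.0785), shControl 3 (0.176), shArl4c 2 (0.0557) or shArl4c 4 (0.134), and with DESeq2 (adjusted p = 0.138). Each Ifngr2 value rests on 301 to 388 reads.

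The genes Ifnar2, Il10rb, Ifnar1 and Ifngr2 lie next to each other in that order on mouse chromosome 16, by the gene order of the RefSeq table for GRCm38.p6. Il10rb, the shared chain of the interleukin 10 and type III interferon receptors, lies between the type I chains. Its means were 23.2 ± 1.49 CPM in shControl and 23.4 ± 2.18 CPM in shArl4c (log2 fold change 0.0094, limma adjusted p = 0.945). Along the cluster the log2 fold changes were thus 0.10, 0.0094, -0.20 and -0.20, and the genes that passed were the neighbours Ifnar1 and Ifngr2. The annotation also holds a transcript model, Gm21970, that shares 315 exon bases with Ifnar2 on the same strand, so the split of reads between them is uncertain. Ifnlr1, the private chain of the type III receptor, lay under the filter. Il10rb, Ifnlr1 and Gm21970 were chosen after their values or annotation were seen.

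Jak2 and Jak1 fell, and Tyk2 rose. Jak2 measured 97.7, 100.4 and 104 CPM in shControl, against 79.6, 78.3 and 76.6 CPM in shArl4c. The lowest shControl value lay 18.02 CPM above the highest shArl4c value, against a range of 6.35 CPM within shControl. The log2 fold change of -0.36 with an SE of 0.046 (limma adjusted p = 3.45e-06) was the largest fall of the 9, and 10.5% of all tested genes had a lower value. Jak1, the kinase shared by both interferon receptors, measured 244, 243 and 265 CPM in shControl, against 221, 211 and 216 CPM in shArl4c. Its groups did not overlap, shControl 3 lay above the other controls, and the log2 fold change was -0.21 with an SE of 0.044 (limma adjusted p = 0.000662). Jak1 and Jak2 passed in all 18 alternatives.

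Tyk2, the kinase of IFNAR1, went the other way. It measured 22.3, 24.1 and 25.6 CPM in shControl, against 27.2, 28.8 and 27.9 CPM in shArl4c. The groups did not overlap, and the gap between them was smaller than the range within shControl (log2 fold change 0.21 with an SE of 0.070, limma adjusted p = 0.0216). The call was lost without shControl 1 (limma adjusted p = 0.124), shControl 2 (0.0577) or shArl4c 4 (0.0563), and with DESeq2 (adjusted p = 0.127). Within each library, the CPM ratio of Jak1 to Tyk2 was 10.9, 10.1 and 10.4 in shControl and 8.12, 7.34 and 7.73 in shArl4c, with no overlap between groups. Jak1 was lower and Tyk2 higher in every shArl4c library than in any shControl library, so this separation follows from those values. The ratio was not tested. The genes whose pattern over the 6 libraries was most like that of Jak2, by Euclidean distance of log2(CPM + 1) from the shControl mean among 10327 genes, were Trak1 (distance 0.024), Flna (0.052) and Ift81 (0.054).

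**Figure D3:**
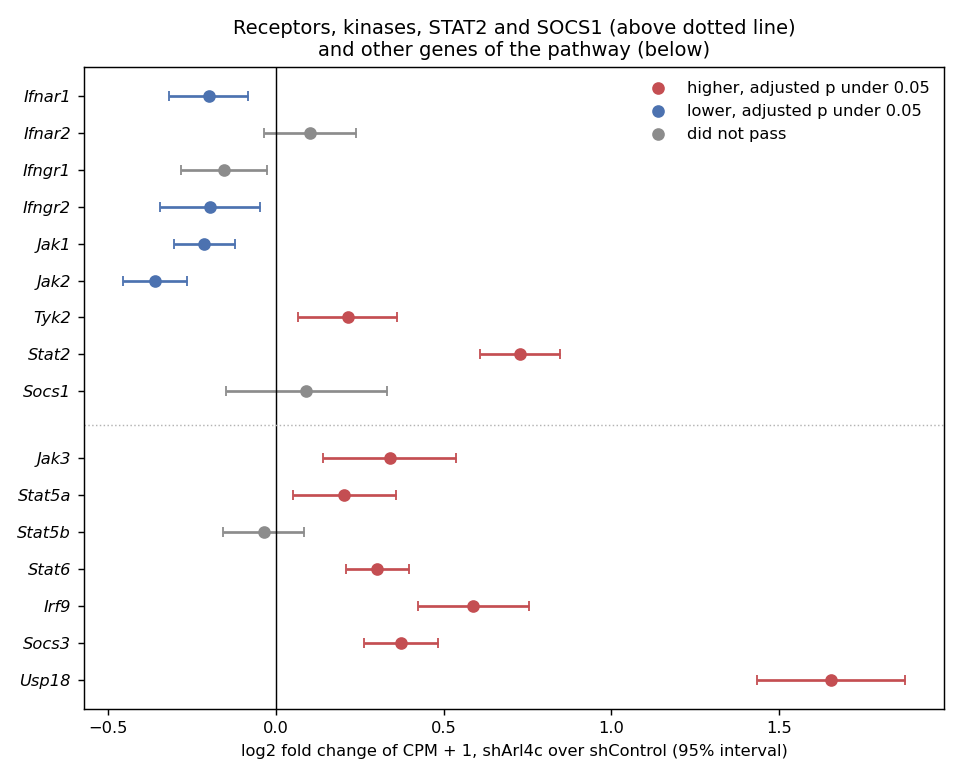
Log2 fold change of CPM + 1 in shArl4c over shControl (horizontal axis; bars are 95% intervals from limma) for the 9 genes above the dotted line and 7 other pathway genes below it, coloured by call. Stat2 at 0.73 and Usp18 at 1.66 lie farthest to the right of 0, and Jak2 at -0.36 farthest to the left.

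Stat2 showed the largest change of the 9 genes. It measured 50.7, 45.9 and 50.3 CPM in libraries 1, 2 and 3 of shControl, against 76.6, 85.2 and 83.5 CPM in libraries 2, 3 and 4 of shArl4c. Every shArl4c library was higher than every shControl library by more than the range within a group. The means were 48.96 ± 2.69 and 81.8 ± 4.57 CPM (SD, n = 3), with a log2 fold change of 0.73 with an SE of 0.056 (95% interval 0.61 to 0.85, limma adjusted p = 4.34e-09), and 2.58% of all tested genes had a higher value. Stat2 passed in all 18 alternatives, and its log2 fold change ran from 0.68 to 0.77 when each library was left out in turn. Relative to Jak1 in the same library, Stat2 stood at a CPM ratio of 0.208, 0.188 and 0.190 in shControl and 0.346, 0.404 and 0.386 in shArl4c. Cpeb3, Ero1lb and Scara5 had the patterns most like that of Stat2, at distances of 0.098, 0.10 and 0.12 on the log2 scale.

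IRF9, the DNA-binding partner of STAT2, is encoded by Irf9, which rose with Stat2. It measured 18.6, 21.7 and 23.4 CPM in shControl, against 33.7, 31.8 and 31.5 CPM in shArl4c (log2 fold change 0.59 with an SE of 0.079, limma adjusted p = 6.87e-06). No shControl library reached the shArl4c values. The CPM ratio of Stat2 to Irf9 was 2.73, 2.11 and 2.15 in shControl and 2.27, 2.68 and 2.65 in shArl4c, so the groups overlapped in this ratio. Of all 9 genes listed as the partner and cofactors of STAT2, 3 rose, 3 fell and 3 did not pass. Thus 66.7% of them changed, against 36.9% of all tested genes (18.9% higher and 18.0% lower). Besides Irf9, the smallest p-values were those of Med14, a Mediator subunit gene (log2 fold change 0.24), and Crebbp, a histone acetyltransferase gene (-0.15). Without trend and robust moderation, 2 were higher and 1 lower.

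The promoter of Stat2 is shown because it holds, within 300 bases, letters of the element that its own complex binds. The window runs from 250 bases before to 50 after the RefSeq start, at chr10:128270248-128270547 on the plus strand of GRCm38.p6, an older build than the GRCm39 named for the deposited table. Capitals mark matches to GAAANNGAAA, the ISRE core with a spacing of 2, and GAAANGAAA, the same with a spacing of 1, searched on both strands. The matches in Stat2 lie on the minus strand and overlap: they span -222 to -213 and -216 to -208 from the start.
Stat2: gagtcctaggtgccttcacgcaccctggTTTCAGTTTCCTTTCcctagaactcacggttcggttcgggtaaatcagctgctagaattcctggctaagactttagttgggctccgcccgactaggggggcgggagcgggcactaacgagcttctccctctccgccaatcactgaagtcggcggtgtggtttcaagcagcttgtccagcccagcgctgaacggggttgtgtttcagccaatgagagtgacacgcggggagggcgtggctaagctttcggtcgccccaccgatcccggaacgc

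Socs1 did not pass the test. It measured 7.38, 9.08 and 8.85 CPM in shControl, against 10.1, 8.39 and 8.65 CPM in shArl4c. The groups overlapped, with shControl 1 the lowest and shArl4c 2 the highest of the 6 libraries. The log2 fold change was 0.091 (95% interval -0.15 to 0.33, limma adjusted p = 0.589). Each value rests on 100 to 139 reads, the fewest of the 9 genes, and a rise of the size seen for Stat2 lies outside the interval.

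The Socs1 promoter is shown because it is the other one of the 9 that holds the ISRE core with a spacing of 2, here as a pair of overlapping matches on the plus strand of the gene, at -83 to -74 and -77 to -68 from the start. It lies at chr16:10785487-10785786 on the minus strand of GRCm38.p6, and capitals again mark the matches.
Socs1: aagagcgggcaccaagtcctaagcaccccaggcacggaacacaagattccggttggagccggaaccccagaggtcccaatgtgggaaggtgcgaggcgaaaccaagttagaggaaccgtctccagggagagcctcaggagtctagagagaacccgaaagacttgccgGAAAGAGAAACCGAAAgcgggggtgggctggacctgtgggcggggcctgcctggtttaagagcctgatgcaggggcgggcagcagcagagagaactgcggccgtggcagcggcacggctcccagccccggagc

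All 9 genes had a promoter in the RefSeq table. GAAANNGAAA occurred in 2 of them (22.2%), Stat2 and Socs1, against 3.99% of 27025 genes with a promoter of the same length. It occurred in 11 of 23 promoters found for the listed targets of the STAT2 complex, in 9 of 18 for those linked to interferon gamma and in 11 of 20 for the interferon genes. GAAANGAAA occurred in Stat2 alone of the 9, against 3.70% of all genes. The GAS letters TTCNNNGAA, which read the same on both strands, occurred in Ifnar1 as TTCACGGAA, from -5 to 3 around the start, and in Ifnar2 as TTCCTGGAA, from -214 to -206. GAS letters were found in 9.55% of all genes. None of the 3 motifs was in the windows of Ifngr1, Ifngr2, Jak1, Jak2 or Tyk2. A match describes letters in a window of a reference genome and shows no binding in these cells. Of the 2 genes that share the GAAANNGAAA core, Stat2 rose and Socs1 did not pass the test, and the difference between them was not tested.

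**Figure D4:**
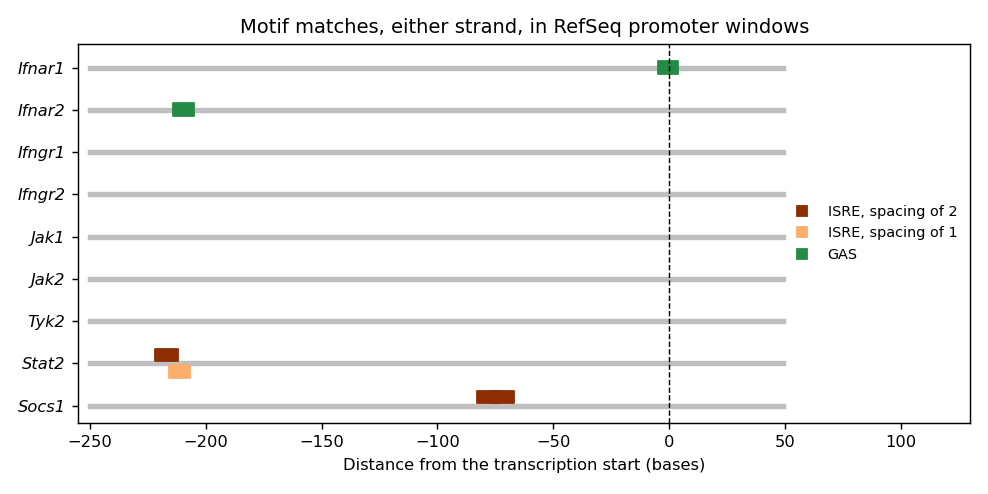
Matches to the ISRE core (brown, spacing of 2; orange, spacing of 1) and to the GAS letters (green) in the promoter windows of the 9 genes, against distance from the transcription start in bases (dashed line at 0). ISRE matches lie in Stat2 and Socs1, and GAS matches in Ifnar1 and Ifnar2.

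Of 19 other listed inhibitors of the pathway, 18 were tested, and 6 rose, 1 fell and 11 did not pass. The 38.9% that changed were close to the 36.9% of all tested genes; their median log2 fold change was 0.052. Usp18, a protease for ISG15 that also binds IFNAR2 and blocks its signalling, rose the most, from 5.62 ± 0.479 to 19.9 ± 2.24 CPM (3.54-fold, log2 fold change 1.66 with an SE of 0.11, limma adjusted p = 2.48e-10). Ptpn1, encoding a phosphatase that acts on JAK2 and TYK2, rose 1.35-fold from 53.6 ± 2.87 to 72.5 ± 2.21 CPM. Socs3, a relative of Socs1 that binds the receptor gp130, measured 47.9, 45.4 and 49.2 CPM in shControl, against 60.7, 62.5 and 62.1 CPM in shArl4c. It rose (log2 fold change 0.37 with an SE of 0.053, limma adjusted p = 1.31e-05), while Socs1 had a log2 fold change of 0.091, and whether these differ was not tested. The number of falls was 3 with edgeR and 4 without shArl4c 3.

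Of the other listed JAK and STAT genes, Jak3, Stat6 and Stat5a rose and Stat5b did not pass. These rises made up 75.0% of the 4 tested, where 36.9% of all tested genes changed and 18.9% were higher. This list does not hold every STAT gene, and Stat4 was not among the genes analysed here. Stat6, the factor of interleukin 4 signalling, went from 114.9 ± 3.98 to 142 ± 5.35 CPM (log2 fold change 0.30, limma adjusted p = 2.5e-05). Jak3, the kinase of the common gamma chain, went from 10.7 ± 0.987 to 13.7 ± 0.267 CPM (0.34), and Stat5a, a factor of growth hormone and cytokine signalling, from 34.3 ± 0.614 to 39.8 ± 4.88 CPM (0.20). Its close relative Stat5b, named after its values were seen, had a log2 fold change of -0.036. With DESeq2, or without shControl 3, 1 of the list was higher.

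JAK1, JAK2 and TYK2 serve many other receptors, and the fold changes of those receptors ran over a wide range in both directions. Of 31 listed chains, 16 were tested: 8 rose, 4 fell and 4 did not pass. Thus 75.0% of the tested chains changed, against 36.9% of all tested genes (18.9% higher and 18.0% lower). The median log2 fold change of the 16 chains was 0.20, with a range of -1.48 to 1.26. The top of this range was Csf2rb, which passed the filter only through shArl4c (mean 2.24 CPM, against 0.348 in the controls). Il23r, one of the falls, passed only through its control libraries (mean 1.70 CPM, against 0.301 in shArl4c). Both were named after their values were seen. Of the 15 chains whose control mean reached 1 CPM, 7 rose. With no filter, 23 chains were tested, of which 9 rose and 6 fell. Lifr, the receptor of leukemia inhibitory factor, had 157 ± 5.63 CPM in shControl and 55.9 ± 2.55 CPM in shArl4c, a 2.81-fold fall (log2 fold change -1.48 with an SE of 0.048, limma adjusted p = 1.38e-14). Il4ra, the interleukin 4 receptor chain, rose 2.07-fold from 48.2 ± 1.31 to 99.7 ± 2.29 CPM, and Il6ra, the ligand-binding chain for interleukin 6, 2.08-fold from 6.70 ± 0.421 to 13.9 ± 0.847 CPM. The 4 interferon receptor chains had log2 fold changes between -0.20 and 0.10. Without shControl 1, 2 of the listed chains were lower.

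Downstream of the pathway, most listed target genes rose. Of all tested genes, 18.9% were higher in shArl4c and 18.0% lower. Of 30 targets of the STAT2 complex, all in the table, 30 rose, with the filter on low values or without it. A mean under 1 CPM in shControl was found for 2 of them, which passed the filter through their shArl4c values, and 28 rose of the 28 at or above it. The median log2 fold change was 1.20 and the smallest 0.37, and the median over all tested genes was 0.0094. Their summed level was 494 to 512 CPM in shControl and 1016 to 1071 CPM in shArl4c. The smallest p-values were those of Oasl2 (3.84-fold), Oas3 (13.1-fold) and Oas2 (13.4-fold), of the 2'-5' oligoadenylate synthetase family. Of 25 genes linked to interferon gamma, 22 were in the table, 18 passed the filter, and these rose by 0.51 to 1.70 on the log2 scale, with a median of 0.99. Without the filter, 17 of the 22 rose and none fell. Of the 18, 2 were under 1 CPM in shControl, and the 16 at or above it rose. Gbp2 (2.08-fold) and Gbp3 (3.27-fold), encoding guanylate-binding proteins, and Tap2 (2.30-fold), a peptide transporter subunit, had the smallest p-values. Both lists were chosen with results of these data known, and many of their genes respond to either kind of interferon, so the counts are no independent evidence of direction. Without shArl4c 3, 29 of 29 and 16 of 18 tested genes were higher.

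Of 20 listed interferon genes, Ifna13 and Ifnk were in the table, both below the filter. Their summed level was 0.331 to 0.517 CPM in shControl and 0 to 0.375 CPM in shArl4c, where a count of 0 allows up to 0.202 to 0.248 CPM per gene and library, for counting error only. The other 18 were looked up by symbol and not found among the genes analysed here. Of 10 leukocyte markers, 8 were listed, with summed levels of 6.95 to 8.41 CPM in shControl and 9.37 to 10.9 CPM in shArl4c. The pan-leukocyte gene Ptprc had 0 to 0.148 CPM in all 6 libraries. Of the 3 that were tested, Cd68 rose (log2 fold change 0.84) and 2 did not pass (-0.011 and -0.16). The share that changed was 33.3%, against 36.9% of all tested genes. The part of such cells in the results above was not tested. Ifna13, Ifnk, Ptprc and Cd68 were chosen after their values were seen.

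**Figure D5:**
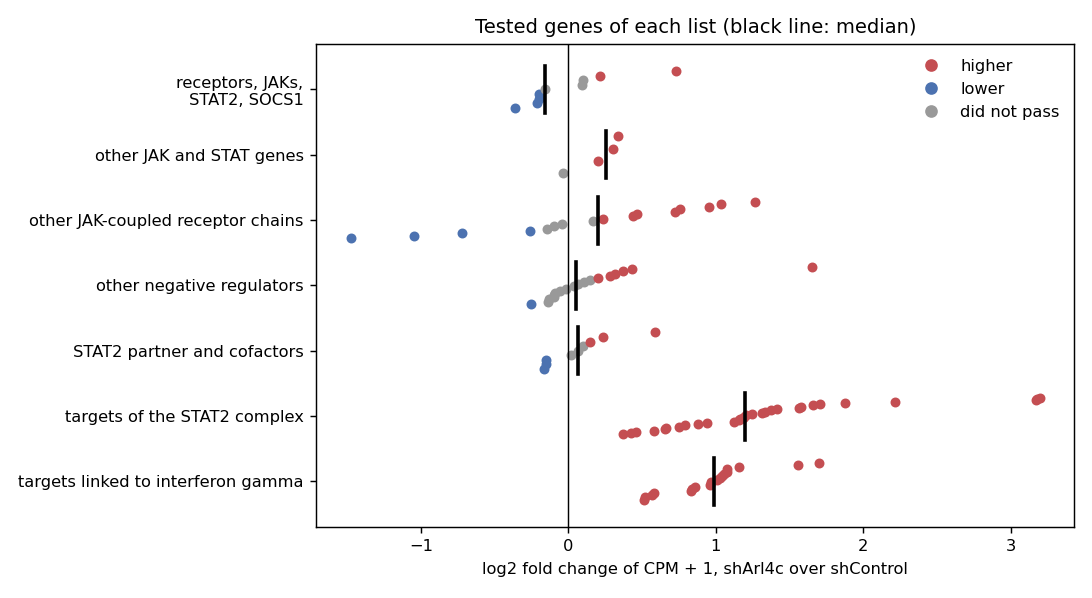
Log2 fold change of CPM + 1 in shArl4c over shControl (horizontal axis) of every tested gene of 7 lists (rows), coloured by call, with a black line at each median. All points of both target lists, which hold only genes past the filter, lie to the right of 0, with medians of 1.20 and 0.99, whereas the receptors, kinases, STAT2 and SOCS1 spread over both sides with a median of -0.16.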

How the data were processed

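RNA was measured in 3 shControl and 3 shArl4c libraries of mDE6. The authors deposited a single table of CPM per gene; Trimmomatic 0.38, RSEM 1.3.0, Bowtie2, edgeR and GRCm39 are named, without order or settings, per the submitters' processing notes. Columns were mapped to groups by name, not to single samples. All values (100%, tolerance 0.001 of a read) were whole multiples of their column's smallest value, which gave back read counts, and the authors' scaling matched edgeR's TMM factors. Symbols were found for 21880 of 22032 identifiers, and 152 had none.

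The 14740 genes whose mean reached 1 CPM were fitted with limma 3.58.1 in R 4.3.3 on log2(CPM + 1), with trend and robust moderation and no covariate, so fold changes on the log2 scale understate those of low genes. P-values were adjusted by Benjamini-Hochberg over all tested genes. On recovered reads edgeR 4.0.16 called 5376 genes and DESeq2 1.42.0 called 4108. The steps were tested on simulated counts. Alternatives were other pseudocounts, filters, scalings, moderation, array weights and leaving out each library. The sources used here do not say whether counting used strand. Jak1 shares 4 exon bases with Raver2 on the opposite strand. Exon lengths came from GENCODE M21 and promoters from RefSeq, both on GRCm38, matched by gene and not by coordinates. The genes and lists were chosen with earlier results of these data known. Genes named by a fixed rule are the 9 genes, Arl4c, and the 3 of each list with the smallest p among those that passed. The rule also names the 3 nearest in pattern to the genes with the largest rise and fall. Some other genes, among them Il10rb, Stat5b, Csf2rb, Il23r, Ptprc and Cd68, were chosen after their values or annotation were seen.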

Additional observations from a re-analysis of the deposited data

How the results depend on the processing

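No paired analysis was possible because the columns carry numbers (1 to 3 and 2 to 4) that do not match those of the labels. Of 162 results for the 9 genes under 18 alternatives, none reversed, 142 stayed on their side of the threshold, 14 no longer passed and 6 newly passed. Ifngr2 no longer passed without the filter (log2 fold change -0.20), with plain CPM (-0.17), without trend and robust moderation (-0.20) or with DESeq2 (-0.21). Ifnar1 no longer passed without trend and robust moderation (-0.20), nor Tyk2 with DESeq2 (0.21). Ifngr1 newly passed with the filter at 5 CPM (-0.16), quantile normalization (-0.16), array weights (-0.15) and edgeR (-0.17), and Ifnar2 with array weights (0.16). DESeq2, and limma without trend and robust moderation, each called 4 of the 9 genes. Over all genes they called 4108 and 4491, against 5445 by limma with trend and robust moderation. The cause was not tested.

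Leaving out each library in turn, which leaves fewer samples, gave 4347 to 6625 changed genes in all and 3 to 7 of the 9. The log2 fold changes then ran from -0.25 to -0.15 for Ifnar1, 0.046 to 0.15 for Ifnar2, -0.24 to -0.15 for Ifngr2 and 0.16 to 0.26 for Tyk2. Plain CPM moved the median of all genes by 0.029. Socs1, with the fewest reads of the 9 genes (100 to 139 per library), had log2 fold changes of 0.0076 to 0.14 when each library was left out.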
